A study of Homo sapiens with 2 samples.

Results

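The guanylate-binding proteins GBP1, GBP2, GBP3, GBP4 and GBP5 were examined in MRC-5 cells, a widely used fibroblast line from human fetal lung, after knockdown of periostin. These 5 genes were chosen by name, out of 21743 genes that the array could be matched to, and every probe carrying the RefSeq accession of a member was used. They were represented by 6 probes, each printed as 1 spot. RNA of cells transfected with periostin siRNA, at 10 nM for 48 h, was compared with RNA of cells transfected with control siRNA, whose dose and time the labels do not give. Both groups are the same unmodified cell line. Each condition was 1 culture on 1 single-colour Agilent array, so the conditions could not be tested against each other. The error given with a signal is the one that the scanner software propagates for that spot, and it leaves out the difference between cultures.

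Guanylate-binding proteins are large GTPases of the dynamin superfamily that cells make in response to interferons, above all interferon gamma. Interferon gamma acts through its receptor and the kinases JAK1 and JAK2. The signal reaches gamma-activated sites in the DNA and also induces IRF1, a factor that binds interferon-stimulated response elements. In the cytosol the proteins assemble on bacteria and on damaged vacuoles, where they help to switch on caspase-4 and the inflammasome. GBP1, GBP2 and GBP5 carry a lipid anchor added by prenylation, whereas GBP3 and GBP4 lack it. Fibroblasts are among the cells in which these genes respond to interferon.

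Promoter stretches of the members are shown because the members are known interferon targets and did not all behave alike on the arrays. The RefSeq promoter table of GRCh38.p14 held GBP1, GBP3 and GBP4, and GBP2 and GBP5 had no entry in it. Each entry runs from 250 bases before the annotated start to 50 bases from it. A pair of motifs was searched on both strands. The first was TTCNNNGAA for the gamma-activated site, which reads the same on both strands. The second was GAAA, any 2 bases and GAAA again for the interferon-stimulated response element, which reads TTTC, any 2 bases and TTTC on the other strand. The first was present in 7.66% and the second in 3.57% of all 35116 promoter entries. The second motif was found once in each of the 3 entries, in every case on the strand opposite to the gene. Below, the match stands in capitals with 10 bases on each side. The stretches lie on the minus strand, at chr1:89065316-89065345 for GBP1, chr1:89022845-89022874 for GBP3 and chr1:89198927-89198956 for GBP4.
GBP1: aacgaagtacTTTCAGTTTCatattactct
GBP3: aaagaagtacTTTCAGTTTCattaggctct
GBP4: gtgcatgtccTTTCAATTTCggttctcaca

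The match lay at positions -127 to -118 from the annotated start in GBP1, at 3 to 12 in GBP3 and at -4 to 6 in GBP4. GBP1 and GBP3 were identical over an unbroken run of 19 bases around it, and 98 of 171 bases (57.3%) were the same when both entries were laid over each other at the match without gaps. GBP1 and GBP4 laid over each other in the same way shared 45 of 177 bases (25.4%). The TTCNNNGAA motif was found in GBP3 alone, at positions -15 to -7 as TTCCTTGAA, and it did not overlap the other motif. The entries of the neighbouring family genes GBP6 and GBP7 held neither motif. A match is a string of letters in a short window, and matches farther from the start were not searched for. A site that departs from the exact string is missed by such a search. The lack of TTCNNNGAA in the GBP1 entry therefore does not show that GBP1 has no gamma-activated site there. The 250 bases before the annotated start are given for GBP1 (chr1:89065209-89065458, minus strand) and GBP3 (chr1:89022867-89023116, minus strand), with matches in capitals, as this pair had the highest identity among the 3 entries. The capitals mark TTTCAGTTTC in GBP1 and TTCCTTGAA in GBP3, since the response element match of GBP3 lies past its start, outside the stretch.
GBP1: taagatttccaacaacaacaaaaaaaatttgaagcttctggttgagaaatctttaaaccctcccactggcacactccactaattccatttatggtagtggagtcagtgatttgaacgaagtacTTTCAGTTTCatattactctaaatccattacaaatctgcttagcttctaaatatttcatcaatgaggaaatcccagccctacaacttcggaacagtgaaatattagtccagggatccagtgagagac
GBP3: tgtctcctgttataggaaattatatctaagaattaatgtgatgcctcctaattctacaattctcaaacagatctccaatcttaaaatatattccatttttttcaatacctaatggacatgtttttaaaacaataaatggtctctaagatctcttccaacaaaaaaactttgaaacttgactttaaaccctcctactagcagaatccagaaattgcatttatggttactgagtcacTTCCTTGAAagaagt

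POSTN, the targeted gene, had a signal of 2638 with control siRNA, against 279.8 after its knockdown, and its log2 ratio was -3.24 ± 0.20. Signals are background-subtracted intensities scaled to the same 75th percentile on both arrays. A log2 ratio above 0 means more signal with periostin siRNA. Of the fibroblast markers, 9 of 9 were well above background on both arrays, with a summed signal of 368588 and 325570. A ratio could be given for 16052 genes, and their median log2 ratio was 0.06.

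GBP1 and GBP2 were higher with periostin siRNA by more than 3-fold. GBP3 was higher by less than 3-fold on both of its probes, with signals that overlapped within their errors on the brighter one. GBP4 differed by less than its spot error, and GBP5 was dim and lower, by an amount that depended on the processing. GBP1, the member that first binds the surface of cytosolic bacteria, had a signal of 181 ± 18.2 with control siRNA and 672 ± 67.2 with periostin siRNA. Its log2 ratio was 1.89 ± 0.20, or 3.71-fold. GBP2, which joins GBP1 on such bacteria and also hinders the furin cleavage of viral envelope proteins, had a signal of 204 ± 20.5 with control siRNA and 1082 ± 108 with periostin siRNA. Its log2 ratio was 2.41 ± 0.20, or 5.31-fold. For both genes the pair of signals lay far beyond the propagated error, and neither spot carried an outlier flag on either array. Before any subtraction by the scanner software, the median pixel of the GBP1 spot exceeded its local background by 214 and 770, and that of the GBP2 spot by 193.5 and 1160.5.

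The members higher by more than 3-fold were thus 2 of 5, and those lower by more than 3-fold 0 of 5. Among all 16052 measured genes, 541 (3.37%) were higher and 441 (2.75%) were lower by more than 3-fold. The members were chosen with earlier results of these data known, so these shares describe them and test nothing. Of the measured genes, 149 had a higher log2 ratio than GBP2 and 334 had a higher one than GBP1. These are places in a list of genes on 2 arrays and carry no replicate error. A log2 ratio above 0 was found for 3 of 5 members, beside 54.5% of the measured genes, and one below 0 for 2 of 5, beside 45.5%. The median log2 ratio of the members was 0.23, beside 0.06 over all measured genes.

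GBP3 and GBP4 take part in the coat on bacteria that activates caspase-4. GBP3 had a pair of probes that carry the same RefSeq accession. The brighter one had a signal of 1741 ± 174 with control siRNA and 2042 ± 204 with periostin siRNA, and its log2 ratio was 0.23 ± 0.20. The other had a signal of 855 ± 85.5 and 1305 ± 131, a log2 ratio of 0.61 ± 0.20. Both probes were thus higher with periostin siRNA, and their log2 ratios differed by 0.38 with an error of 0.29. The signals of the brighter probe overlapped within their errors, and those of the other did not. The ratio of the brighter probe was 0.09 with another background correction (normexp) and 0.10 with median scaling. Of the measured genes, 36.5% had a higher log2 ratio than the brighter probe and 16.6% a higher one than the other. GBP4 had a signal of 58.5 ± 6.07 with control siRNA and 56.5 ± 5.87 with periostin siRNA, and its log2 ratio was -0.05 ± 0.21. The signals of GBP4 overlapped within their errors, and the sign of its ratio changed with the background correction, to 0.02.

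GBP5, which promotes assembly of the NLRP3 inflammasome and also hinders furin, had a signal of 12.4 ± 2.02 with control siRNA and 3.98 ± 1.66 with periostin siRNA. The first was well above background and the second was not. With periostin siRNA, no signal well above background lay under 7.77 among probes printed once. Set against this floor, GBP5 was lower by a bound of 1.59-fold, which leaves out the error of the control signal. The ratio of the measured signals themselves was -1.64 ± 0.65 on the log2 scale, which is past 3-fold but sets a signal against background. Under another background correction (normexp) the log2 ratio of GBP5 was only -0.15. Before any subtraction by the scanner software, the median pixel of its spot exceeded its local background by 18.5 and 12. How much lower GBP5 was thus depends on the processing. The direction of GBP5 was opposite to that of GBP1 and GBP2, but its signal with periostin siRNA was not well above background.

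**Figure D1:**
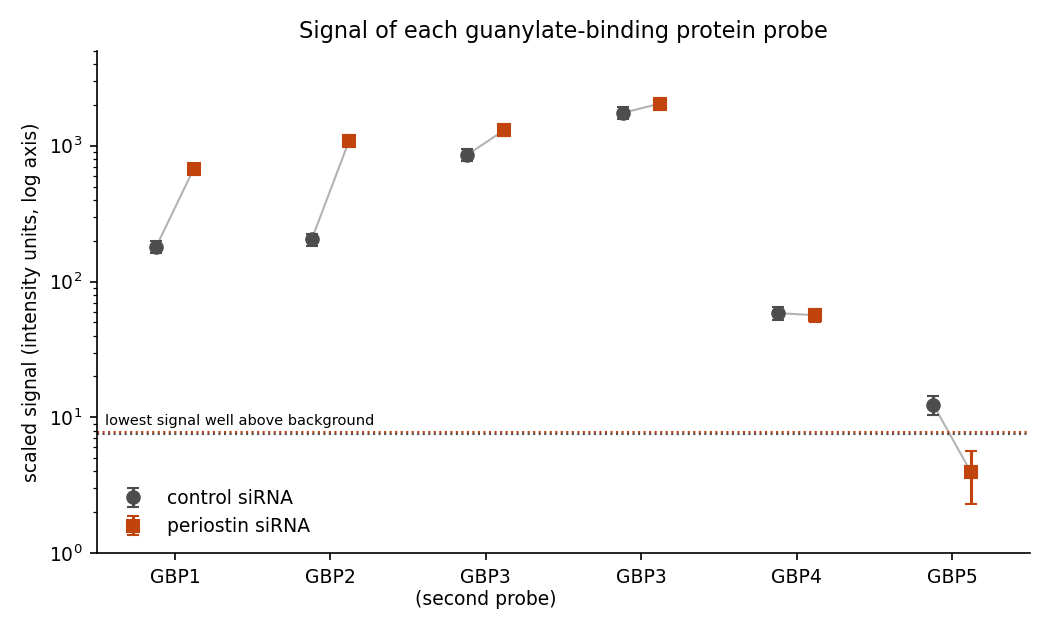
Scaled signal (log axis, intensity units) of the 6 probes of the guanylate-binding proteins with control siRNA (circles) and periostin siRNA (squares), 1 spot per array. Bars are the propagated spot error and dotted lines the lowest signal well above background on each array among probes printed once. GBP1 and GBP2 go from 181 to 672 and from 204 to 1082, while GBP4 stays at 58.5 and 56.5 and GBP5 drops below the dotted lines.

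In the order of log2 ratios, GBP2 stood above GBP1 by 0.52 with an error of 0.29, and GBP1 stood above the brighter GBP3 probe by 1.66 with an error of 0.29. By its brighter probe GBP3 stood above GBP4 by 0.28 with an error of 0.29, which is within the spot error, and by its other probe by 0.66 with an error of 0.29, which is beyond it. GBP5 came last, with a bound. The noise between spots of 1 probe was smaller than the propagated error for all 5 members, though only slightly so for GBP4. Among the 100 probes printed 10 times that were nearest in brightness, the SD of the log2 ratio between spots was 0.08 for GBP2, 0.09 for GBP1 and 0.06 for the brighter GBP3 probe. It was 0.21 for GBP4 and 0.26 for GBP5. The probes of GBP1 and GBP2 were therefore more precise than those of GBP4 and GBP5 as far as spot noise goes.

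**Figure D2:**
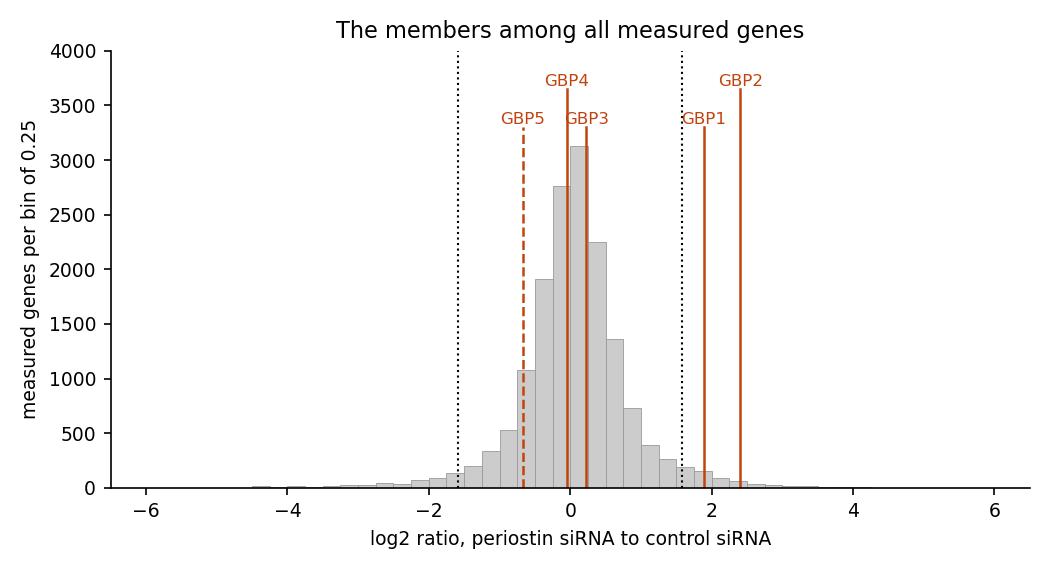
Number of measured genes (bars, bins of 0.25) by log2 ratio (periostin siRNA over control siRNA), over 16052 genes. Solid lines mark members measured on both arrays, the dashed line marks GBP5 at its bound, and dotted lines mark 3-fold. GBP1 and GBP2 lie beyond the upper 3-fold line with 541 genes in all, and GBP3 and GBP4 lie in the bulk of the genes.

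The members lie in a row on chromosome 1, in the order GBP3, GBP1, GBP2, GBP7, GBP4, GBP5 and GBP6, so GBP1 and GBP2, the pair past 3-fold, are next to each other. A list of 8 genes beside this cluster, which does not hold every neighbour, was also read. Of these, 2 had a log2 ratio above 0 and 6 below it, with a median of -0.41, and none was past 3-fold. The highest was GTF2B, a general transcription factor, at 0.22 ± 0.20, and the lowest LRRC8C, a subunit of a volume-regulated anion channel, at -1.53 ± 0.21. A second LRRC8C probe gave -1.43.

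Of 7 relatives of the members, 5 could be measured, 1 with a log2 ratio above 0 and 4 below it, with a median of -0.23 and none past 3-fold. GBP6 was the highest, at 0.38 ± 0.20, from 4133 with control siRNA to 5367 with periostin siRNA. Its other probe, which has the same accession, was not well above background on either array, with signals of 1.60 and 1.63, so the GBP6 probes disagree on whether the gene is detected. GBP7 and IRGM, an immunity-related GTPase tied to autophagy, were not well above background on either array. The lowest relative was ATL3, an atlastin that shapes the endoplasmic reticulum, at -0.71 ± 0.20.

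The 4 interferon receptor chains, which stand at the head of the pathway, had log2 ratios from -0.15 ± 0.20 for IFNGR1 to 0.46 ± 0.20 for IFNGR2, with a median of 0.26, 3 above 0 and 1 below. Of 13 kinases, transcription factors and inhibitors of the signal, 12 could be measured, 8 above 0 and 4 below, with a median of 0.14. None was higher by more than 3-fold and 1 was lower. The highest was SOCS1, an inhibitor of JAK kinases that interferon itself induces, at 1.58 ± 0.20 or 2.996-fold, from 389 to 1165. The lowest was SOCS3, an inhibitor best known from interleukin-6 signalling, at -1.92 ± 0.20, from 2256 to 598.

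Of the transcription factors of the pathway, IRF9 and IRF1 are named here after their values were seen. IRF9, the DNA-binding part of the complex that forms in response to type I interferon, went from 840 with control siRNA to 2017 after the knockdown, and its log2 ratio was 1.26 ± 0.20. IRF1 was at 348 and 315, a ratio of -0.14 ± 0.20. IRF9 was thus higher with periostin siRNA beyond the spot error, whereas the signals of IRF1 lay within it.

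Of 14 other genes induced by interferon gamma, 12 could be measured, 7 above 0 and 5 below, with a median of 0.12. Of these, 3 were higher and 1 was lower by more than 3-fold. The chemokine CXCL10 was at 56.3 with control siRNA and 899 with periostin siRNA, and was 16.0-fold higher, with an error of 0.21 on the log2 scale. A second probe gave a log2 ratio of 4.05. CXCL11, a chemokine for the same receptor, was well above background with periostin siRNA alone and at least 6.92-fold higher. ICAM1, an adhesion molecule that NF-kB also induces, was at 257 and 1008, a ratio of 1.97 ± 0.10 (SD over 10 spots). TAP2, a peptide transporter chain, was at 1816 and 574, a ratio of -1.66 ± 0.20. Another TAP2 probe, of another transcript, went the other way and was well above background with periostin siRNA alone, so the direction of TAP2 depends on the probe. CXCL9 and HLA-DRA, both classical targets of interferon gamma, were not well above background on either array.

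**Figure D3:**
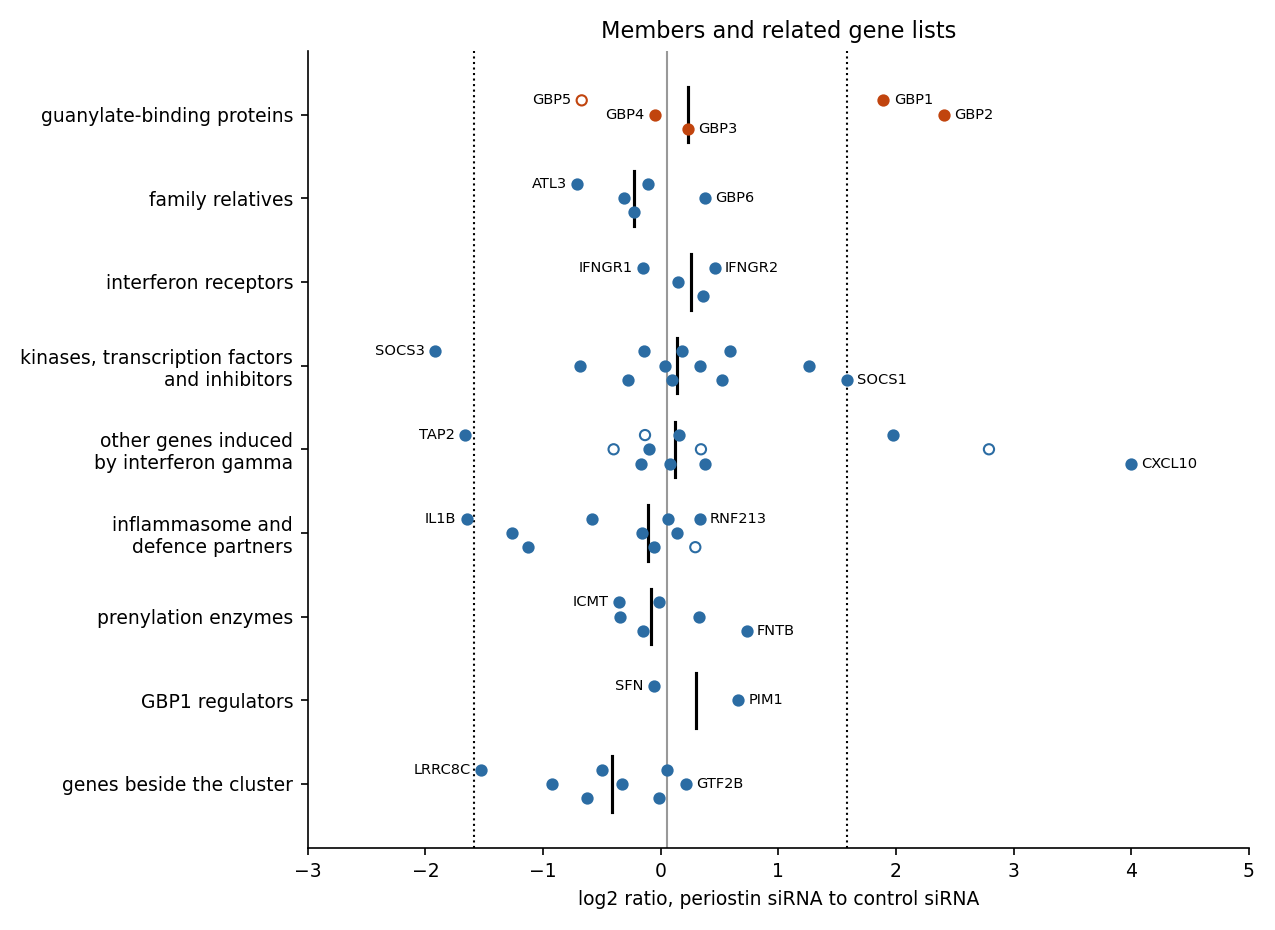
Log2 ratio (periostin siRNA over control siRNA) for each measured gene of the members and of 8 related lists, with the highest and lowest gene of each list named. Filled points were well above background on both arrays, open points are bounds, short black bars are list medians, the grey line is the median of all measured genes (0.06) and dotted lines mark 3-fold. GBP1, GBP2, CXCL10 and 2 others lie beyond the upper dotted line, and no gene of the other lists does.

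Of 13 inflammasome and host defence partners of the members, 10 could be measured, 4 above 0 and 6 below, with a median of -0.11. None was higher and 1 was lower by more than 3-fold, namely IL1B, the cytokine matured by caspase-1, from 324 to 103, a log2 ratio of -1.65 ± 0.10 (SD over 10 spots). The highest was RNF213, a large ubiquitin ligase, at 0.33 ± 0.20 by its brightest probe, whereas its 5 probes ranged from -0.87 to 0.67. CASP4, the caspase that the coat of GBP1 brings to bacterial lipopolysaccharide, was at 19775 with control siRNA and 9056 with periostin siRNA, giving a ratio of -1.13 ± 0.20, and was named after its value was seen. CASP4 and IL1B were thus lower with periostin siRNA, opposite to GBP1 and GBP2. Both are among the 6 partners below 0, so a lower signal was not particular to CASP4.

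Of 6 prenylation enzymes, which add and finish the lipid anchor, 2 were above 0 and 4 below, with a median of -0.08 and none past 3-fold, from ICMT, which methylates the anchored end, at -0.36 ± 0.20 to FNTB, a farnesyltransferase chain, at 0.73 ± 0.20. Of the regulators of GBP1, the kinase PIM1 was at 0.66 ± 0.20 and SFN, a 14-3-3 protein, at -0.05 ± 0.28.

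Marker genes of other cell types were read from lists, although the labels give the same fibroblast line for both samples. These are signals of genes, and they do not show that other cells were present. Of 7 named immune markers, 4 were well above background with control siRNA and 5 with periostin siRNA, their summed signal was 1935 and 3111, and MS4A1 and LAPTM5 were below background on both arrays. Most of this sum came from CD68, a lysosomal protein abundant in macrophages, at 1528 and 2451, and CD14 was at 287 and 549. PTPRC, present on all leukocytes, was dim at 17.6 and 25.1, and CORO1A, an actin-binding protein of leukocytes, went the other way, from 89.9 to 66.6. Of 4 epithelial markers, 3 were above background on both arrays with a summed signal of 955 and 1760, and CDH1 was below it on both. Most of the epithelial sum came from KRT8, at 751 and 1281. KRT19 was at 167 and 342, and EPCAM at 34.6 and 135, which is 3.90-fold higher with periostin siRNA. Of 4 endothelial markers, 3 and 2 were above background, with a summed signal of 133 and 130, and PECAM1 was below it on both. The immune and epithelial sums were higher with periostin siRNA, as GBP1 and GBP2 were. Whether this bears on the higher signals of GBP1 and GBP2 was not tested.

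The genes nearest to GBP2 in log2 ratio were taken over 14734 genes measured on both arrays without an outlier flag. They were GRIN2C at 2.41, APOC1 at 2.40, IFIH1 at 2.42, ETV7 at 2.42 and IMPA2 at 2.42, beside 2.41 for GBP2. IFIH1 is a cytosolic sensor of double-stranded RNA and is itself induced by interferon. The likeness is that of 1 ratio from 2 arrays, so it says only that these genes differed between the arrays by the same factor.

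**Figure D4:**
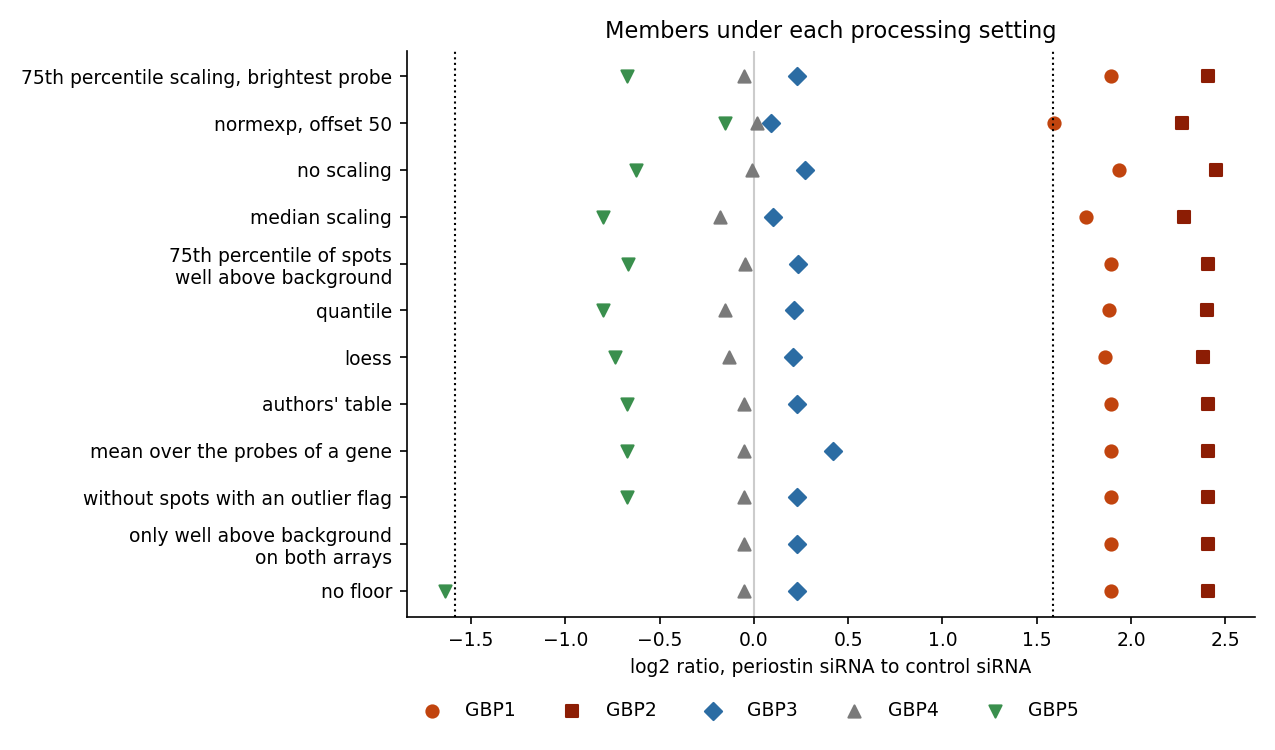
Log2 ratio (periostin siRNA over control siRNA) of each member (symbols) under each way of processing (rows), with dotted lines at 3-fold. GBP2 stays between 2.27 and 2.45 and GBP1 between 1.59 and 1.94, both beyond the upper line. GBP3 stays between 0.09 and 0.42. GBP5 passes the lower line where no floor is used and lies at -0.15 with normexp.

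GBP1 and GBP2 were past 3-fold under every scaling and background correction run. The log2 ratio of GBP2 ranged from 2.27 to 2.45 and that of GBP1 from 1.59 to 1.94, the lowest of each coming from the normexp background correction, which lifts every spot by an offset of 50 and under which 0.892% of the measured genes were higher by more than 3-fold. GBP1 was then barely past 3-fold.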

How the data were processed

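RNA of MRC-5 cells with control siRNA or periostin siRNA was measured on 1 Agilent array each. The authors deposited 1 scanner file per array, holding intensity values that Feature Extraction had background-subtracted but not scaled (version 11.5.1.1 per the file headers, 12.0.3.1 in the submitters' processing notes), and a table of normalized intensity, which for probes printed once was the scanner intensity times 3.65 (control siRNA) or 3.54 (periostin siRNA). The array design was annotated on hg19. RefSeq accessions of GRCh38.p14 named 65.1% of the 58717 non-control spots.

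Here log2 intensities were scaled on the 75th percentile in Python 3.11.15, with R 4.3.3 and limma 3.58.1 for alternatives. Spots of a probe were averaged, and the brightest probe stood for a gene. A signal not well above background on 1 array was replaced by the higher of itself and a floor, and the fold is then a bound. The floor was the lowest signal well above background on that array among probes printed once, 7.55 or 7.77 after scaling. Genes below background on both arrays got no ratio, nor did those whose bound pointed the other way. Ratios were called past 3-fold, without a test. Signals were well above background for 58.0% and 58.9% of spots, and none was saturated. The number of arrays limits the precision. The functions were tested on simulated data in which no spot was above background on 1 array alone, so the step that gives bounds was not tested. No protein sequences were analysed here. The values of 1 gene of the lists are not reported here.

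The members and lists were chosen with earlier results of these data known. Named were every member probe, POSTN, the highest and lowest gene of each list and those past 3-fold, and the 5 genes nearest in ratio to the member with the largest ratio. Other genes, among them GBP7, IRGM, CXCL9 and HLA-DRA, were chosen after their values were seen, and markers and disagreeing probes are given besides.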

Additional observations from a re-analysis of the deposited data

How the results depend on the processing

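No paired analysis was possible because there was a single array per group, and no replicate could be left out. GBP1 and GBP2 were past 3-fold in all alternatives that kept this threshold, and at 4-fold 1 member was left. Without the floor, an alternative chosen after seeing the data, 1 member was lower by more than 3-fold. The median of the members was 0.091 with normexp, 0.10 with median scaling, 0.42 with the mean over probes and 1.06 with only genes well above background on both arrays, which leaves out GBP5. Normexp gave 143 higher and 190 lower genes and -2.99 for POSTN. At 2-fold 1279 genes were higher and 1031 lower, at 4-fold 278 and 274. Median scaling moved the median of all genes from 0.06 to -0.07 and with it the list medians, to -0.36 for the relatives, 0.13 for the receptors, 0.011 for the kinases, factors and inhibitors, -0.0077 for the other genes induced by interferon gamma, -0.24 for the inflammasome partners, -0.21 for the prenylation enzymes, 0.17 for the regulators of GBP1 and -0.54 for the genes beside the cluster. The last was -0.19 with the mean over probes. Where not stated, the cause was not tested. Signal over background limits GBP4 and GBP5 most.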
